A study of Mus musculus with 60 samples.

Results

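The genes described here encode the proteins of the mitochondrial ribosome. They were taken as the rows of the count table whose symbol is Mrpl or Mrps followed by a number and at most a single letter, which gave 78 of 55011 genes: 49 Mrpl genes, named for the large subunit, and 29 Mrps genes, named for the small subunit. By the place of the protein, 51 belong to the large subunit (Mrps18a and Mrps30 sit there despite their names), 26 belong to the small subunit, and Mrps36 is not a ribosomal protein but an adaptor of the 2-oxoglutarate dehydrogenase complex. Each of 77 members passed the filter on low counts in every comparison, and Mrpl53 passed it in none.

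The study measured RNA of fat tissue and of its regulatory T cells (Tregs, Foxp3-positive CD4 T cells that restrain immune responses) in 60 mouse libraries of 19 groups, all from males 8 weeks old. Whole brown adipose tissue (BAT) and subcutaneous adipose tissue (SAT) came from B6.Foxp3.DTR mice that were DTR+ or DTR- and were both given diphtheria toxin (DT), which kills cells carrying the receptor, so that the groups compared differ in genotype and share the toxin. These libraries carry D4 in their titles (4 of each genotype in BAT and 4 of each in SAT) or D3 (3 of each). The D3 titles also carry PBS, which the D4 titles lack, while the treatment label is DT. What D3 and D4 stand for is not given in the labels. In BAT of the same strain, all with DT, there were 3 DTR+ and 3 DTR- libraries with CL (taken here to be CL-316243, which activates the beta-3 adrenergic receptor of fat cells), 3 DTR- libraries with PBS, 3 DTR+ libraries with anti-IFNy antibody, and 3 DTR+ libraries with an isotype antibody. A further 3 BAT libraries from C57BL/6J mice had anti-CD25 (PC61), an antibody that depletes Tregs, against 3 with isotype antibody. A last 3 BAT libraries, of strain B6.Foxp3.DTR, are labelled DTR- by genotype but titled WT, and have 4 degrees and PBS in the title and no DT in the treatment label. Treg libraries were sorted as CD45+Tcrb+CD4+Thy1.1+ cells from untreated B6.Foxp3.Thy1.1 mice: 2 from BAT, 3 from SAT and 3 from spleen. Nothing in the labels says that libraries of a group came from separate mice, so p-values measure the spread between libraries, which may be technical.

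Mitochondria keep a small genome of their own, and its protein-coding genes, all for subunits of the respiratory chain and ATP synthase, are translated by a dedicated ribosome. Its RNAs come from the mitochondrial genome, while every one of its proteins is encoded in the nucleus, made in the cytosol and imported. Many of the proteins have counterparts in bacteria and others were added in the mitochondrial lineage. Brown fat is packed with mitochondria in which UCP1 turns respiration into heat, and subcutaneous white fat holds far fewer of them.

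The members lie on 17 chromosomes. Mrpl46 and Mrps11, both members, share 173 bases of exon on opposite strands. RefSeq promoter windows (build GRCm38.p6, 250 bases before the start to 50 after it) matched 69 of the 78 members. Both strands were searched for exact matches to 3 motifs found in many housekeeping promoters and to a TATA box. The motif CCGGAAG, bound by ETS factors such as GABP, was in the windows of 26 members (37.7%), against 9.93% of 27025 genes. AAGATGGC, a YY1 motif, was in 12 (17.4%), against 3.19% of genes, and GCATGCGC, an NRF1 motif, was in 8 (11.6%), against 3.05%. At least 1 of these 3 was in the windows of 38 members (55.1%), against 14.9% of genes. TATAAA was in the windows of 5 members (7.25%), against 15.7% of genes. A match describes the letters and is not evidence of binding. The windows shown belong to Mrps27 (chr13:99344536-99344835, plus strand) and Mrpl34 (chr8:71464676-71464975, plus strand), which fell in BAT of DTR+ mice, and to Mrps36 (chr13:100744610-100744909, minus strand) and Mrps6 (chr16:92058086-92058385, plus strand), which stood apart between the fat depots. Capitals mark the ETS motif on either strand and the YY1 motif.
Mrps27: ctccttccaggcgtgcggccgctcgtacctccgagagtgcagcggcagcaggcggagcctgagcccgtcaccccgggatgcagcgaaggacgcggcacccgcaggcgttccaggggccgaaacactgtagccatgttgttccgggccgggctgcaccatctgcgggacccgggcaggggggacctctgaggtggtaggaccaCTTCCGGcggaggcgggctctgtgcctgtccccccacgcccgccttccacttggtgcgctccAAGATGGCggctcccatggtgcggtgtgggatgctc
Mrpl34: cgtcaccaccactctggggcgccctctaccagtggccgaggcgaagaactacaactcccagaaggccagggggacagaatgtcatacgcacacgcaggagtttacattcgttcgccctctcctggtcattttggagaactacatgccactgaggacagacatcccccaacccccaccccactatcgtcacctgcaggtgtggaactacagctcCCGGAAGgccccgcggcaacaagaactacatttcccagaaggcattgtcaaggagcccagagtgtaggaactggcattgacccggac
Mrps36: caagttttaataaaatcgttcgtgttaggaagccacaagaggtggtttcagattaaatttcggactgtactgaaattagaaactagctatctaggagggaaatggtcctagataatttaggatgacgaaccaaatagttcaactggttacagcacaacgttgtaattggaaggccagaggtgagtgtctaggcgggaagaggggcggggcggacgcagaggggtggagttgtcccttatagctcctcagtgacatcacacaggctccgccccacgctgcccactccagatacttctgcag
Mrps6: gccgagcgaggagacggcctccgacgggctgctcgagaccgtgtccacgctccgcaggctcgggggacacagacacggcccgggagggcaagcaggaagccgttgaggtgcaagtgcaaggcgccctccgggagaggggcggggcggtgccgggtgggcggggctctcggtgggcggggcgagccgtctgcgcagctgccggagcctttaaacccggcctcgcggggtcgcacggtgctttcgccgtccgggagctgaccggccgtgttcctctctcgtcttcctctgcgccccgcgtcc
Mrps27 holds an ETS motif on the other strand and a YY1 motif, Mrpl34 holds an ETS motif, and neither Mrps36 nor Mrps6 holds any of the motifs searched in its window.

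Libraries held 3007241 to 9673342 counts, of which 13567 to 95559 fell on the members. In Treg libraries the summed Treg markers were 3260 to 3660 CPM (counts scaled to the library total) and the summed brown adipocyte markers at most 1.74 CPM, while the summed B cell markers reached 761 to 1280 CPM. The brown adipocyte markers in the D4 and D3 controls were 12300 to 17900 CPM in BAT. In SAT libraries they were 254 to 1730 CPM. Foxp3 was at 0 in several whole-tissue groups, controls included, so its counts do not check the loss of Tregs there.

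Together the members made up a share of the RNA that set the tissues apart without overlap. Their summed level was 5976 to 10550 CPM in 38 BAT libraries (median 7775), 4296 to 5114 CPM in 14 SAT libraries (median 4814) and 2780 to 3542 CPM in 8 Treg libraries (median 3052). The mitochondrially encoded genes followed the same order, with 8.82 to 16% of counts in BAT, 3.24 to 5.58% in SAT and 0.764 to 1.07% in Treg libraries. The proteins of the cytosolic ribosome ran the other way, with 0.699 to 1.58% of counts in BAT, 1.24 to 1.86% in SAT and 3.81 to 5.44% in Treg libraries. Large subunit members outweighed small subunit members 2.12 to 2.43 times in BAT, 1.91 to 2.07 times in SAT and 1.97 to 2.09 times in Treg libraries. Levels set across groups are CPM of the library total.

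**Figure D1:**
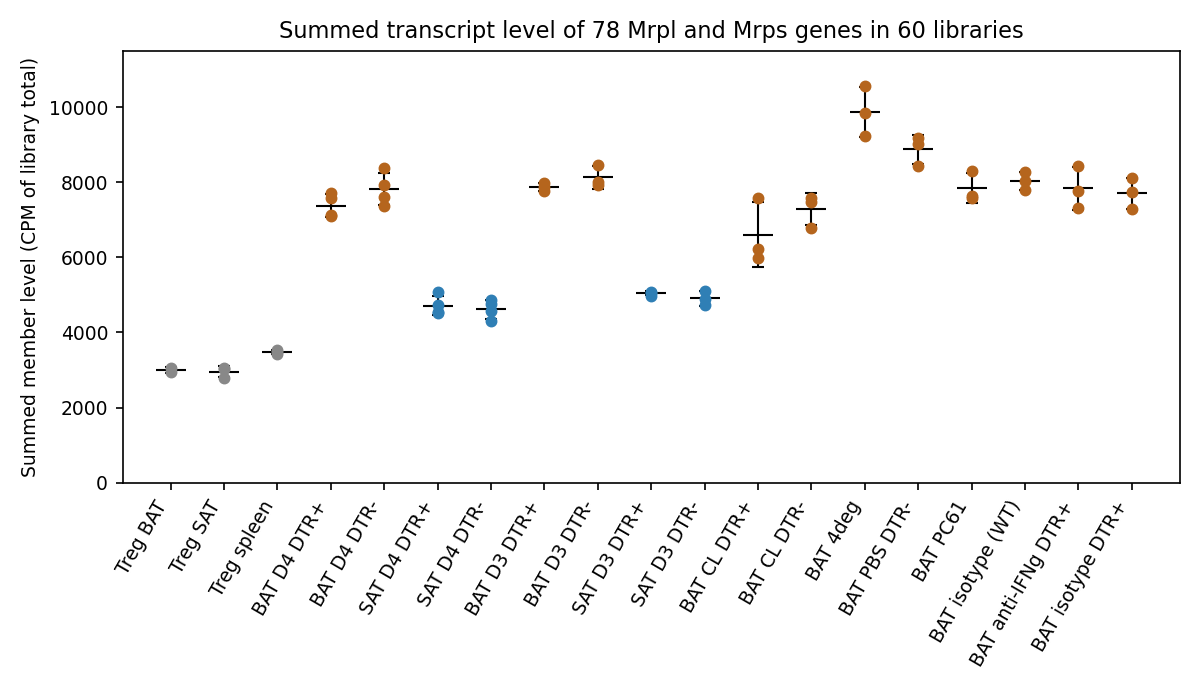
Summed level of the 78 members (vertical axis, CPM of the library total) in each library (points) of the 19 groups (horizontal axis), with bars for the group mean and SD. BAT libraries lie at 5976 CPM and above, SAT libraries at 5114 CPM and below, and Treg libraries at 3542 CPM and below.

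The members differed widely in level. The scale used here is counts per kilobase of merged exon, which takes in the exons of every annotated transcript of a gene. A gene with long annotated exons can rank low on it without having few counts. Mrps10, among the lowest per kb below, had a mean of 75.6 normalised CPM with PBS, against 26.3 for Mrps33. The ranks therefore hold for this scale only. In BAT of DTR- mice with PBS, Mrpl34 (the counterpart of a small bacterial large-subunit protein) had the highest level, 309 ± 37.5 CPM per kb (SD, n = 3). Below it came Mrpl12, which also binds the mitochondrial RNA polymerase, with 180 ± 6.46 CPM per kb. Mrpl55 had 176 ± 18.1, Mrps21 had 147 ± 13.9 and Mrpl2, a core protein of the large subunit, had 145 ± 5.04 CPM per kb, and the last pair did not differ beyond their spread. The lowest levels per kb were those of Mrps10 (9.42 ± 1.30), Mrpl19 (8.83 ± 0.498), Mrpl48 (8.29 ± 1.25), Mrpl23 (1.69 ± 0.191) and Mrpl53 (0.342 ± 0.112 CPM per kb). Of the exon bases of Mrpl53, 88.0% are shared on the same strand with another annotated gene, so that its counts are uncertain. Same-strand genes also share 37.0% of the exon bases of Mrps34, 23.2% of Mrps18c, 19.9% of Mrps6 and 15.4% of Mrps24. On the opposite strand, single other genes share 69.8% of the exon bases of Mrps25, 63.4% of Mrps34, 36% of Mrpl19, 33.4% of Mrpl43, 30.5% of Mrps18b, 26.3% of Mrpl24 and 24.2% of Mrps27. Smaller shares include 14.1% of Mrpl10 and, with separate genes, 13.9% and 10.2% of Mrpl47. Reads over such shared bases cannot be told apart here, whichever strand the other gene lies on.

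Other members led in spleen Tregs. Mrpl18 (49.4 ± 1.81), Mrps23 (49.3 ± 5.57), Mrpl52 (47.3 ± 4.96), Mrps24 (45.3 ± 4.02) and Mrpl10 (44.7 ± 3.05 CPM per kb; SD, n = 3) were highest and overlapped in their spread. Mrpl34, first in BAT, was at 35.9 ± 6.98 CPM per kb in spleen Tregs, where it ranked 14. The lowest per kb were Mrpl13 (4.01 ± 0.0183), Mrpl48 (3.45 ± 0.623), Mrpl1 (3.25 ± 0.649), Mrpl23 (1.97 ± 0.175) and Mrpl53 (1.54 ± 1.38). In SAT of D4 DTR- mice the highest was Mrps6, with 115 ± 8.29 CPM per kb (n = 4), a gene that ranked 35 in BAT with PBS at 45.1 ± 7.42.

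Among the comparisons fitted, these genes differed most between BAT and SAT. In the DTR- mice of D4, 75 of 77 tested members were higher in BAT, where 25.9% of 12310 tested genes were higher. Of the tested genes 25% were lower, and the single lower member was Mrps6. The members' median log2 fold change was 1.17 (quartiles 0.84 and 1.56), against 0.01 over all tested genes. In the DTR- mice of D3, which are other libraries, 72 members were higher (23% of 12387 genes) and 1 was lower (22.9%), with a median of 1.16 against -0.02. These calls, like all that follow, are from edgeR's quasi-likelihood test with Benjamini-Hochberg adjustment over all tested genes at 0.05. The single lower member of D3 was again Mrps6. In bulk tissue, a different number of cells of a type and a different amount of RNA per cell cannot be told apart. Without TMM scaling the median of all genes moved to -0.47 in D4 and -0.49 in D3, and the members still stood 1.17 and 1.18 above it, with 62 and 61 called.

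Mrps36 differed most by fold. It had 93.0, 83.5, 76.2 and 75.1 normalised CPM in the 4 BAT libraries of D4, against 10.9, 7.20, 12.7 and 10.9 in the SAT libraries (log2 fold change 2.96 ± 0.17, adjusted p = 3.7e-09; ± is the standard error). In D3 it had 85.4, 84.7 and 81.0 normalised CPM in BAT, against 11.04, 8.61 and 11.7 in SAT (2.99 ± 0.16, adjusted p = 3.1e-08). Every BAT library stood far above every SAT library. The 3 subunits of the enzyme that Mrps36 serves, named after their values were seen, were also higher in BAT. In D4 the log2 fold changes were 2.95 for Ogdh, 2.74 for Dlst and 2.08 for Dld. The 35 tested complex I subunits had a median of 2.08 there. In D3 the log2 fold changes were 2.97 for Ogdh, 2.79 for Dlst and 1.95 for Dld.

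Among the ribosomal proteins proper, Mrpl34 differed most. It had 244, 224, 193 and 211 normalised CPM in BAT of D4, against 29.9, 35.1, 35.7 and 32.8 in SAT (log2 fold change 2.71 ± 0.11, adjusted p = 7.7e-10). In D3 it had 233, 193 and 210 normalised CPM in BAT, against 34.5, 31.8 and 44.5 in SAT (2.52 ± 0.15, adjusted p = 5.5e-08). Mrpl42, a protein with no bacterial counterpart, had 372, 396, 347 and 371 normalised CPM in BAT of D4, against 89.7, 85.3, 104 and 107 in SAT (1.94 ± 0.10, adjusted p = 2.3e-09). The BAT and SAT libraries of both genes were far apart. By p, the next in D4 were Mrpl30 (1.77), Mrpl4 (1.81), Mrpl3 (1.72), Mrpl2 (1.56), Mrps35 (1.77), Mrpl50 (1.66) and Mrps27 (1.76). Those of D3, after Mrps36, Mrpl34 and Mrpl42 (1.70), were Mrpl9 (1.74), Mrps23 (1.76), Mrpl4 (1.86), Mrpl55 (1.70), Mrps2 (1.86), Mrps35 (1.84) and Mrpl16 (1.65).

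Mrps6, the counterpart of a bacterial small-subunit protein, was lower in BAT. It had 95.4, 125, 108 and 108 normalised CPM in BAT of D4, against 133, 159, 160 and 149 in SAT (log2 fold change -0.46 ± 0.11, adjusted p = 0.0023), and the groups did not overlap. In D3 it had 110, 101 and 115 normalised CPM in BAT, against 146, 114 and 156 in SAT (-0.36 ± 0.14, adjusted p = 0.048). There the highest BAT library passed the lowest SAT library, and the call was lost with DESeq2 (adjusted p = 0.063) and when any of 5 of the 6 libraries was left out (adjusted p up to 0.16). Mrps6 shares 159 bases of exon on the same strand with Slc5a3, a myo-inositol transporter that was itself lower in BAT (-1.96 in D4 and -1.37 in D3). The part of Slc5a3 reads in the Mrps6 counts was not tested.

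The large subunit had 49 of 50 tested members higher in D4 (median 1.20), and the small subunit had 25 of 26 (median 1.08). Of the members with a bacterial counterpart 44 of 46 were higher, and of those without one all 30 were higher in D4 and 28 in D3. Of the 3 Mrps18 paralogues, Mrps18b differed by 1.61 and Mrps18a by 1.23, both counted here among members without a bacterial counterpart. The third, Mrps18c, differed by 0.72 (adjusted p = 3e-04), a call it lost without scaling (0.23, adjusted p = 0.13). Mrpl12 differed by 1.55, Mrpl45, which anchors the ribosome to the inner membrane, by 1.14, and Mrpl58, a peptidyl-tRNA hydrolase built into the large subunit, by 1.02. Mrpl52 had 34.9, 38.03, 33.0 and 32.9 normalised CPM in BAT of D4, against 28.6, 26.3, 25.8 and 28.6 in SAT (0.34 ± 0.13, adjusted p = 0.044). The low-count Mrpl23 was not called in D4 (0.57, adjusted p = 0.056), and Mrpl23, Mrpl32, Mrpl49 and Mrpl52 were not called in D3.

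**Figure D2:**
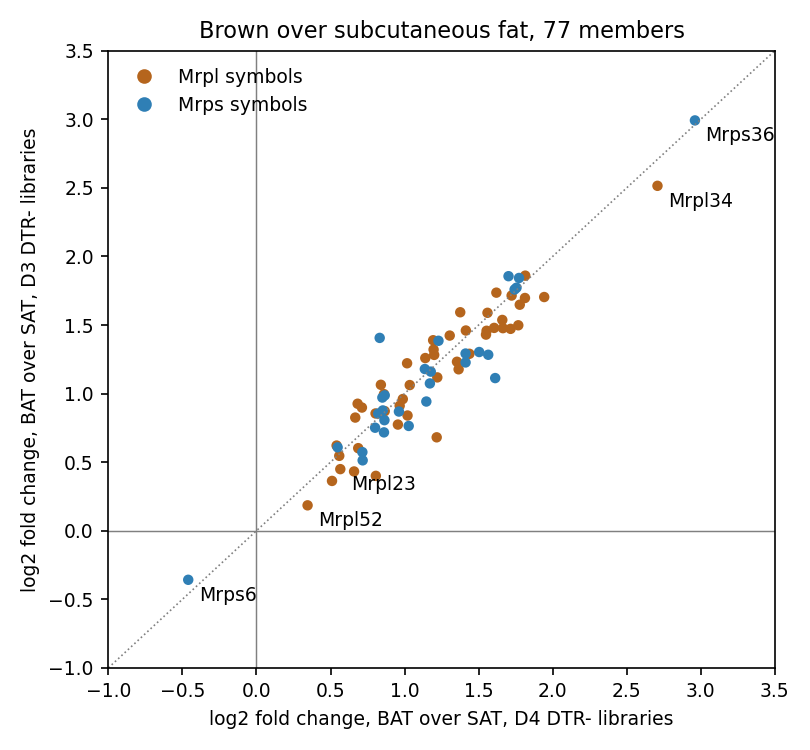
Log2 fold change of BAT over SAT in DTR- mice for the 77 tested members, D4 on the horizontal axis and D3 on the vertical axis, with the dotted line marking equal values and colour marking Mrpl or Mrps names. Mrps36 (2.96 and 2.99) and Mrpl34 (2.71 and 2.52) lie at the top right, and Mrps6 (-0.46 and -0.36) lies alone below 0 on both axes.

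Other genes of mitochondrial translation differed with the members. All 6 genes listed here as ribosomal proteins with other names were higher in BAT of D4, among them Ptcd3 (1.36). That list also counts Ndufab1 (2.09), an acyl carrier protein and complex I subunit that is not a protein of the mature ribosome. Of 24 assembly factors 22 were higher in D4 and 18 in D3, with Mtg1, an assembly GTPase, at 1.496 and 1.40. Of 15 tested translation factors 12 were higher on each occasion, with Tufm, the mitochondrial elongation factor Tu, at 1.69 and 1.84. All 35 tested complex I subunits were higher in both (medians 2.08 and 1.99), as were 13 and 12 of the 13 mitochondrially encoded genes (medians 2.22 and 2.18). The cytosolic ribosomal proteins had 45 of 77 lower and 3 higher in D4, and 34 lower and 4 higher in D3.

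The depletion comparison asked what changes in fat when Tregs are lost. In D4 BAT, 36 of 77 members were lower in DTR+ than in DTR- mice, where 7.36% of 11695 tested genes were lower, and none was higher (8.73% of tested genes). The log2 fold change was negative for 75 members, with a median of -0.32 (quartiles -0.41 and -0.24), against 0.02 over all tested genes. The ranges of the groups did not overlap for 44 members, all lower in DTR+, where 9.74% of tested genes had such ranges. DESeq2 called 42 members, and leaving out any 1 library left 24 (without DTR+ library 1) to 42. Scaling bears on this result: without TMM factors the median of all genes was 0.27 higher in DTR+, the members' median was -0.07 and 2 members were called, Mrpl50 and Mrpl34, while the distance of the members' median from that of all genes was -0.34 either way. The summed level of the members, which is not TMM-scaled, was 7102, 7725, 7122 and 7571 CPM in DTR+, against 8375, 7925, 7378 and 7612 CPM in DTR-, and those ranges overlapped.

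Mrpl50, a large-subunit protein with no bacterial counterpart, fell most. It had 71.1, 85.2, 93.5 and 62.3 normalised CPM in the DTR+ libraries of D4, against 117, 152, 131 and 136 in the DTR- libraries (log2 fold change -0.78 ± 0.13, adjusted p = 0.00068). Mrpl34 had 150, 121, 124 and 142 normalised CPM in DTR+, against 226, 207, 179 and 195 in DTR- (-0.59 ± 0.11, adjusted p = 0.0013). Every DTR+ library of both genes was below every DTR- library. Mrps2, the counterpart of a bacterial small-subunit protein, had 66.1, 61.9, 66.0 and 71.6 normalised CPM in DTR+, against 96.8, 101, 88.8 and 96.7 in DTR- (-0.53 ± 0.10, adjusted p = 0.0021). Mrps27, a pentatricopeptide-repeat protein of the small subunit, had 67.0, 85.5, 88.2 and 66.9 normalised CPM in DTR+, against 119, 114, 103 and 110 in DTR- (-0.54 ± 0.12, adjusted p = 0.0048). Mrpl12 had 200, 199, 196 and 217 normalised CPM in DTR+, against 291, 288, 245 and 273 in DTR- (-0.44 ± 0.09, adjusted p = 0.004). The groups of these 3 genes were again separate, and the DTR+ libraries of Mrps2 and Mrpl12 lay close to each other.

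Others among the first 10 by p were Mrpl3 (-0.46), Mrps15 (-0.46), Mrpl30 (-0.41), Mrpl4 (-0.45) and Mrps23 (-0.46), with adjusted p from 0.0051 to 0.0083. Mrpl58 fell too, with 52.7, 58.4, 60.7 and 70.0 normalised CPM in DTR+, against 84.4, 90.9, 74.7 and 81.1 in DTR- (-0.46 ± 0.12, adjusted p = 0.013). Mrps36 fell by 0.39 (adjusted p = 0.03), but the call was lost when any of 5 libraries was left out (adjusted p up to 0.094). The paralogue Mrps18b fell by 0.45 (adjusted p = 0.028), a call lost without DTR- library 4 (adjusted p = 0.05), DTR+ library 1 (0.065) or DTR+ library 2 (0.077). Its paralogues had values of 0.05 for Mrps18a (adjusted p = 0.87) and -0.14 for Mrps18c (0.52), and Mrpl45 had -0.08 (0.72). The calls were spread over the ribosome, with 23 of 50 large subunit and 12 of 26 small subunit members, and with 20 of 46 members that have a bacterial counterpart and 15 of 30 that do not.

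**Figure D3:**
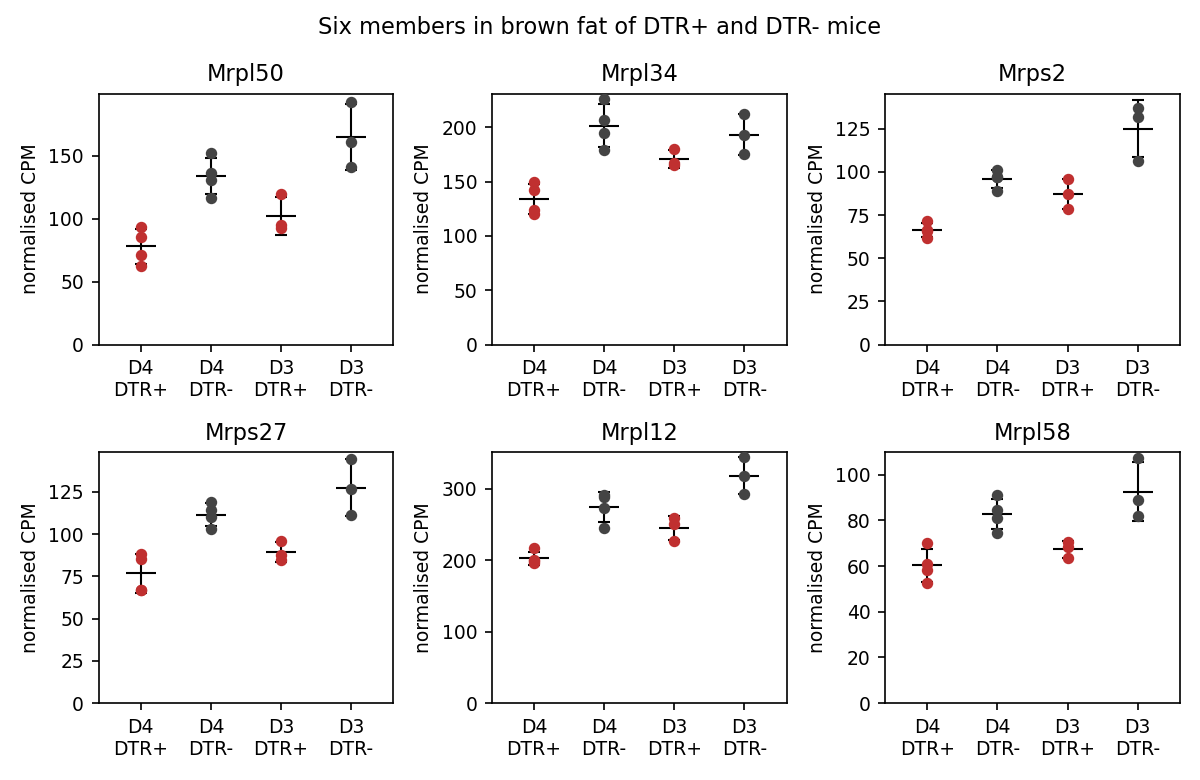
Normalised CPM (vertical axes) of Mrpl50, Mrpl34, Mrps2, Mrps27, Mrpl12 and Mrpl58 in BAT libraries (points) of DTR+ and DTR- mice in D4 and D3, with bars for the mean and SD. In D4 every DTR+ library lies below every DTR- library in all 6 genes, as for Mrpl50 with 62.3 to 93.5 against 117 to 152 normalised CPM.

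Other mitochondrial lists moved with the members in D4 BAT. Of 35 tested complex I subunits 32 were lower (median -0.42), among them Ndufs1 (-0.62 ± 0.08, adjusted p = 8.8e-05) and Ndufv2 (-0.53 ± 0.08, adjusted p = 0.00036). Of the 13 mitochondrially encoded genes 6 were lower (median -0.36), with mt-Cytb at -0.45 and mt-Nd1 at -0.69. Of 15 translation factors 5 were lower, among them Gfm1, a mitochondrial elongation factor (-0.71), and Oxa1l, which inserts the products into the inner membrane (-0.42). Fewer were called among the 24 assembly factors (Mettl15, -1.08) and the 13 tested genes of mitochondrial DNA expression (Tfb2m, -0.49). Of the 6 genes listed as ribosomal proteins with other names, Ptcd3 (-0.46) and the acyl carrier protein Ndufab1 (-0.45) were called. The 3 subunits of 2-oxoglutarate dehydrogenase, named after their values were seen, fell by 0.53 (Ogdh), 0.54 (Dlst) and 0.57 (Dld). Among 12 regulators of mitochondrial biogenesis Myc (1.57) and Ppargc1a, the coactivator PGC-1alpha (0.73), were higher, and 15 of 77 cytosolic ribosomal proteins were higher (median 0.22).

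Markers of cell types moved with this result. The summed brown adipocyte markers were 9190 to 11100 CPM in D4 BAT of DTR+, against 12300 to 14700 CPM in DTR-, and Ucp1 fell by 1.08 (adjusted p = 3.2e-06). The summed macrophage markers were 598 to 1350 CPM in DTR+, against 135 to 329 CPM in DTR-. T and NK cell markers summed to 22.7 to 57.5 CPM in DTR+, against 5.55 to 7.42 CPM in DTR-. None of these ranges overlapped, and their part in the fall of the members was not tested. Muscle markers reached 5730 CPM in a DTR+ library and 2060 CPM in a DTR- library.

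In D3 BAT, 3 members were lower in DTR+ than in DTR- mice (1.29% of 11666 tested genes) and none was higher (2.24%). Their log2 fold changes were negative for 73 of 77 members, with a median of -0.26 against 0.02 over all tested genes. The ranges did not overlap for 39 members, all lower in DTR+, where 11.9% of tested genes had such ranges. The number called rested on single libraries: it was 0 without DTR- library 1, DTR+ library 1 or DTR+ library 2, 1 without DTR- library 2 or DTR+ library 3, and 3 without DTR- library 3. Without TMM factors none was called, and the median of all genes was 0.22. The blocked fit by library number called 1.

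The 3 were Mrpl50, Mrps27 and Mrps2, all among those called in D4. Mrpl50 had 92.7, 94.9 and 120 normalised CPM in the DTR+ libraries, against 193, 141 and 161 in the DTR- libraries (log2 fold change -0.69 ± 0.14, adjusted p = 0.015). Mrps27 had 84.9, 95.8 and 87.5 normalised CPM in DTR+, against 145, 126 and 111 in DTR- (-0.51 ± 0.13, adjusted p = 0.041). Mrps2 had 87.0, 78.4 and 95.9 normalised CPM in DTR+, against 137, 132 and 106 in DTR- (-0.52 ± 0.13, adjusted p = 0.044). The groups of all 3 genes were separate, with the smallest gap in Mrps2. The 36 members called in D4 had a D3 median of -0.32, with 35 negative, and the 41 members not called in D4 had a D3 median of -0.19, with 38 negative. The libraries of D3 and D4 are separate. Brown adipocyte markers were 11600 to 14100 CPM in D3 BAT of DTR+, against 15500 to 17900 CPM in DTR-, and macrophage markers were 326 to 385 CPM against 122 to 237 CPM.

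SAT of the same genotypes gave no called member. In D4 the count was 0 of 77 (0.299% of 12728 tested genes higher and 0.0157% lower), with 2 members at an unadjusted p under 0.05 and 0 by DESeq2, and the median was 0.03 against 0.00 over all tested genes. In D3 the count was 0 of 77 (0% of 12596 tested genes in either direction), with 1 member at an unadjusted p under 0.05 and 0 by DESeq2, and the median was 0.04 against 0.01. Mrpl50 had 46.7, 47.2, 82.3 and 50.1 normalised CPM in SAT of D4 DTR+, against 51.4, 52.2, 58.9 and 52.4 in DTR- (0.08, adjusted p = 0.95). A single DTR+ library, the third, was above all others. In D3 SAT it had 57.9, 55.2 and 61.9 normalised CPM in DTR+, against 72.6, 75.3 and 82.5 in DTR- (-0.40 ± 0.13, adjusted p = 0.86), and although those groups did not overlap the difference did not pass the test. Ranges were separate for 3 members higher and 2 lower in D3 DTR+ (5.6% and 4.58% of tested genes), and for 2 higher and 1 lower in D4 DTR+ (3.11% and 2.03%). Mrps6 and Mrpl17, the members of highest mean level in SAT, had log2 fold changes of 0.01 and -0.07 in D4 and of 0.07 and -0.11 in D3.

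The difference between the effects of genotype in BAT and in SAT was tested directly, from the same libraries. In D4 it was negative for all 77 members (median -0.38, against 0.00 over all tested genes), and 10 were called (1.05% of 13502 genes in that direction, and 3.06% in the other, with no member). Mrpl34 (-0.75, adjusted p = 0.016), Mrpl30 (-0.61, 0.016), Mrpl3 (-0.72, 0.019) and Mrps15 (-0.76, 0.021) came first by p. The others were Mrps7, Mrps2, Mrps24, Mrpl50, Mrps21 and Mrpl44. The count was 1 without BAT DTR- library 2, 3 without BAT DTR- library 4, and from 4 to 10 without any other single library, and none passed without TMM factors. In D3 the difference was negative for 74 members (median -0.29), and none was called (0.0075% of 13325 genes in that direction and 0.06% in the other), with 14 at an unadjusted p under 0.05 and 1 called by DESeq2. In SAT of D4, DTR- library 3 held T cell genes and DTR+ library 3 held muscle genes, and without this pair 5 members were called in D4.

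Antibody to CD25 gave a second way of depleting Tregs, in wild-type mice without toxin. In BAT, 2 of 77 members were lower with PC61 than with isotype antibody (0.486% of 11513 tested genes) and none was higher (0.165%), with a median of -0.13 against 0.02 over all tested genes and 61 members negative. Mrps2 had 75.5, 88.9 and 79.8 normalised CPM with PC61, against 144, 121 and 124 with isotype (log2 fold change -0.67 ± 0.13, adjusted p = 0.025). Mrpl47, the counterpart of a bacterial large-subunit protein, had 45.0, 46.3 and 52.4 normalised CPM with PC61, against 80.0, 75.1 and 71.0 with isotype (-0.65 ± 0.14, adjusted p = 0.045). The groups were well apart in both genes, and ranges were separate for 15 members lower with PC61 (8.38% of tested genes) and none higher (7.83%). Leaving out any 1 of the 6 libraries left 0 or 1 call, and without TMM factors there was none. Mrpl50 had 149, 190 and 203 normalised CPM with PC61, against 197, 268 and 225 with isotype (-0.35 ± 0.14, adjusted p = 0.39), and these ranges overlapped. The 36 members called in D4 had a median of -0.14 here and the other 41 a median of -0.13. Brown adipocyte markers were 11300 to 12500 CPM with PC61, against 13000 to 19900 CPM with isotype, and macrophage markers 115 to 155 CPM against 73.3 to 108 CPM. Muscle markers were 206, 6550 and 547 CPM with PC61, against 1390, 3.36 and 9.46 CPM with isotype. The part of these markers was not tested.

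Stimulation with CL was compared with PBS in BAT of DTR- mice, which asked how the tissue answers the agonist. With CL, 18 of 77 members were lower (11.8% of 12048 tested genes) and 1 was higher (16.3%), so that the share of lower members, unlike that of higher ones, exceeded the share of all genes. The median was -0.27 against -0.03 over all tested genes, and 62 members were negative. The ranges did not overlap for 34 members lower with CL, where 22% of tested genes had such ranges, and for 7 higher with CL (23.3%). The count of 19 calls was 8 without PBS library 3 and 9 without CL DTR- library 1, and 41 when the spread was taken from all whole-fat libraries.

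Mrps6 was the member that rose. It had 168, 191 and 161 normalised CPM with CL, against 73.5, 67.9 and 61.4 with PBS (log2 fold change 1.36 ± 0.17, adjusted p = 6e-05), and every CL library was far above every PBS library. Slc5a3, which shares exon with it, rose by 3.30 (adjusted p = 3.8e-05), and the part of its reads in Mrps6 was not tested. Mrpl36, a small protein of the large subunit, had 36.2, 46.0 and 42.7 normalised CPM with CL, against 94.5, 104 and 110 with PBS (-1.30 ± 0.21, adjusted p = 0.00051). Mrpl27, the counterpart of a bacterial protein near the peptidyl transferase centre, had 36.6, 35.5 and 37.1 normalised CPM with CL, against 78.7, 80.3 and 102 with PBS (-1.26 ± 0.24, adjusted p = 0.0016). In both genes no CL library came near a PBS library. Mrps27 fell to 64.5, 58.1 and 60.2 normalised CPM with CL, against 91.3, 117 and 115 with PBS (-0.83 ± 0.18, adjusted p = 0.0039). Mrpl2 had 88.3, 72.4 and 105 normalised CPM with CL, against 152, 167 and 183 with PBS (-0.91 ± 0.20, adjusted p = 0.004).

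The next by p were Mrps26 (-0.84), Mrps34 (-1.11), Mrpl49 (-0.93), Mrpl18 (-0.77), Mrpl28 (-0.68) and Mrps16 (-0.80). The calls of Mrpl18, Mrpl28 and Mrps16 were lost without CL DTR- library 1 (adjusted p 0.075, 0.053 and 0.095) or without PBS library 3 (0.071, 0.07 and 0.096), and that of Mrps16 also without CL DTR- library 2 (0.056). Of the exon bases of Mrps34, 37.0% are shared on the same strand with Nme3 and 63.4% on the opposite strand with Mapk8ip3, so its counts are uncertain. Mrpl58 fell by 0.61 (adjusted p = 0.039), a call lost in 6 of the fits without 1 library and under the block by library number (adjusted p = 0.065). Among the paralogues, Mrps18a had -0.11, Mrps18b 0.42 and Mrps18c -0.28, and none passed the test, nor did Mrpl12 (-0.21), Mrpl45 (-0.40) or Mrps36 (-0.18).

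Lists beside the members moved both ways with CL. Lower were 3 of 24 assembly factors (Mrm2, -2.97; Mrm1, -1.15; Mpv17l2, -0.67), 3 of 13 genes of mitochondrial DNA expression (Tefm, -1.99; Mterf2, -1.66; Ssbp1, -0.75), 4 of 13 mitochondrially encoded genes (mt-Co2, -1.16) and 1 of 35 complex I subunits (Ndufs6, -0.51). Among translation factors 5 were lower (Mtif2, -1.18) and 3 were higher (Guf1, 1.42). Of 12 regulators 7 were higher, with Ppargc1a at 4.89 and Ppara at 3.21. Of 77 cytosolic ribosomal proteins 57 were higher and none was lower, with a median of 0.69, so that the proteins of the cytosolic and the mitochondrial ribosome had medians of opposite sign. Brown adipocyte markers were 20800 to 24800 CPM with CL, against 15900 to 17400 CPM with PBS, and a PBS library had 172 CPM of T and NK cell markers. Macrophage markers were 158 to 175 CPM with CL, against 246 to 650 CPM with PBS, highest in PBS library 3. Endothelial markers were 339 to 382 CPM with CL, against 131 to 237 CPM with PBS. The part of these markers in the calls was not tested.

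**Figure D4:**
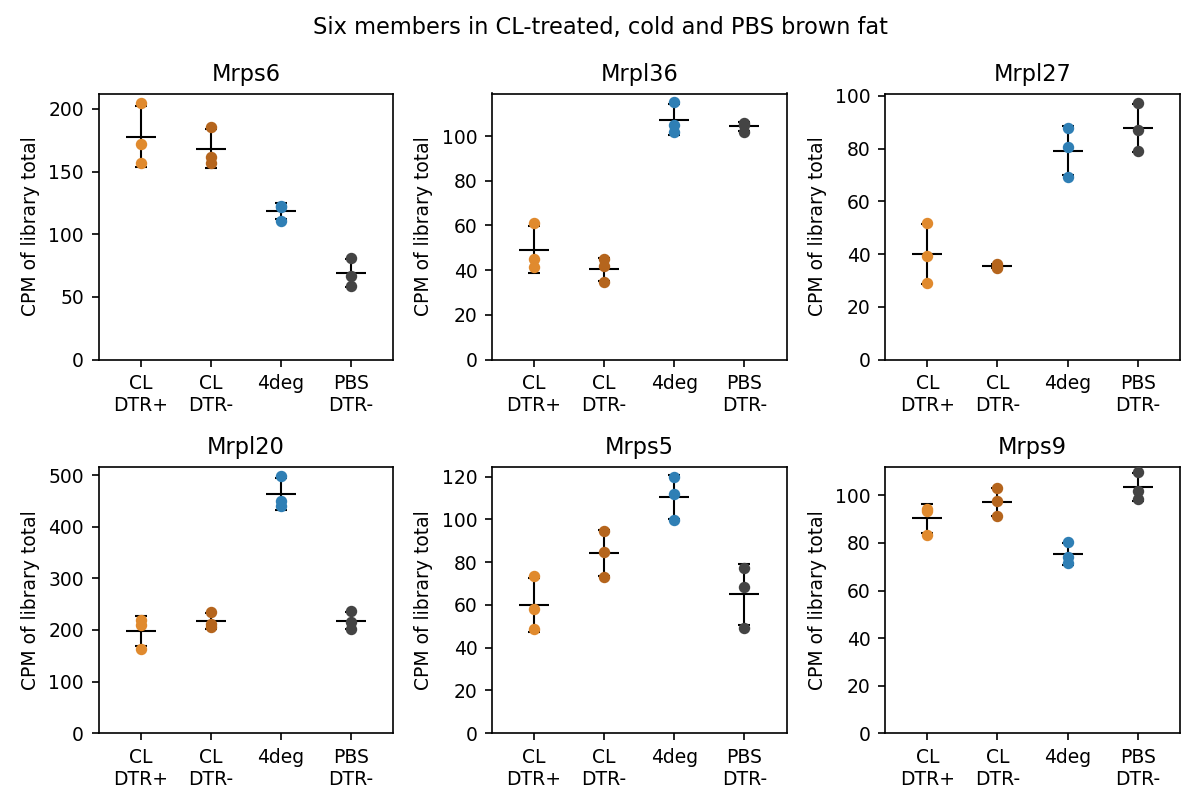
Level (vertical axes, CPM of the library total) of Mrps6, Mrpl36, Mrpl27, Mrpl20, Mrps5 and Mrps9 in BAT libraries (points) of DTR+ mice with CL, DTR- mice with CL, mice at 4 degrees and DTR- mice with PBS, with bars for the mean and SD. Mrps6 is high in both CL groups (157 to 205 CPM) and Mrpl20 stands apart at 4 degrees (441 to 499 CPM, with 164 to 236 CPM in the other 3 groups).

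Within CL-treated BAT, which shares the DTR- libraries with the comparison above, 1 of 77 members was lower in DTR+ than in DTR- mice (3.21% of 12048 tested genes) and none was higher (4.51%). Both shares of members were below those of all tested genes. Mrps23, a small-subunit protein with no bacterial counterpart, had 118, 104 and 110 normalised CPM in DTR+, against 158, 190 and 147 in DTR- (log2 fold change -0.57 ± 0.16, adjusted p = 0.049). The groups did not overlap, but the call was lost in 8 of the 9 fits without 1 library (adjusted p up to 0.15) and under the block by library number (0.073). DESeq2 called 3 members and the fit over all whole-fat libraries 12. The median was -0.16 against 0.01 over all tested genes. Mrps6 had 160, 197 and 174 normalised CPM in DTR+, against 168, 191 and 161 in DTR- (0.03 ± 0.16, adjusted p = 0.93), and the groups overlapped. Macrophage markers were 876 to 1040 CPM in DTR+, against 158 to 175 CPM in DTR-.

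Antibody to IFN-gamma in BAT of DTR+ mice gave no called member. With anti-IFNy antibody the count was 0 of 77 (0.0333% of 12017 tested genes higher and 0.508% lower), with 2 members at an unadjusted p under 0.05 and 0 by DESeq2, and a median of 0.05 against 0.01. Those 2 were Mrpl50 and Mrpl45. Mrpl50 had 137, 102 and 159 normalised CPM with anti-IFNy, against 96.7, 83.4 and 113 with isotype (log2 fold change 0.44 ± 0.16, adjusted p = 0.47), and the groups overlapped. The members of highest level, Mrpl30 and Mrpl42, had log2 fold changes of 0.05 and 0.16, with adjusted p of 0.95 and 0.77.

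BAT at 4 degrees was compared with the DTR- libraries with PBS, which also serve the CL comparison. The cold libraries are labelled without toxin and titled WT although their genotype label is DTR-, so temperature, toxin and experiment cannot be told apart. At 4 degrees 3 of 77 members were higher (4.86% of 12329 tested genes) and 1 was lower (3.8%), with a median of 0.09 against 0.00 over all tested genes. Neither share of members exceeded that of all tested genes. Mrpl20, the counterpart of a bacterial large-subunit protein, had 474, 464 and 430 normalised CPM at 4 degrees, against 206, 248 and 215 with PBS (log2 fold change 1.03 ± 0.13, adjusted p = 0.0015). All 3 cold libraries stood far above the rest: in CPM of the library total Mrpl20 was at 450, 499 and 441 at 4 degrees and at most 236 in any other BAT library. Set against the D3 or D4 DTR- libraries, as alternative controls, it differed by 1.06 (adjusted p = 8.9e-05) and 1.44 (1.1e-06).

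Mrps6 had 129, 103 and 120 normalised CPM at 4 degrees, against 77.4, 70.4 and 62.8 with PBS (log2 fold change 0.74 ± 0.16, adjusted p = 0.015). Against D3 and D4 controls its values were 0.18 (adjusted p = 0.38) and 0.23 (0.18), and the call was lost without cold library 1 (0.059), cold library 3 (0.064) or PBS library 2 (0.051). Slc5a3 had a log2 fold change of 0.94 (adjusted p = 0.048) in the same libraries, and its part in the Mrps6 counts was not tested. Mrps5, a small-subunit protein at the messenger entry site, had 105, 104 and 117 normalised CPM at 4 degrees, against 73.3, 72.0 and 52.3 with PBS (0.72 ± 0.17, adjusted p = 0.023), but 0.10 against the D3 controls (adjusted p = 0.67). Mrps9 was lower, with 75.5, 74.8 and 72.2 normalised CPM at 4 degrees, against 104, 103 and 109 with PBS (-0.51 ± 0.14, adjusted p = 0.041), and every fit without 1 library lost the call (adjusted p up to 0.13). The groups were separate in all 3 genes. The count of calls was 1 without cold library 1, cold library 3 or PBS library 2, 2 without cold library 2 and 6 without PBS library 3. With D3 and D4 controls it was 16 and 31. Brown adipocyte markers were 25500 to 27200 CPM at 4 degrees, against 15900 to 17400 CPM with PBS, and Ppargc1a rose by 1.11 (adjusted p = 0.013). Macrophage markers were 188 to 270 CPM at 4 degrees, against 246 to 650 CPM with PBS. Endothelial markers were 407 to 535 CPM, against 131 to 237 CPM. The part of these markers was not tested.

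**Figure D5:**
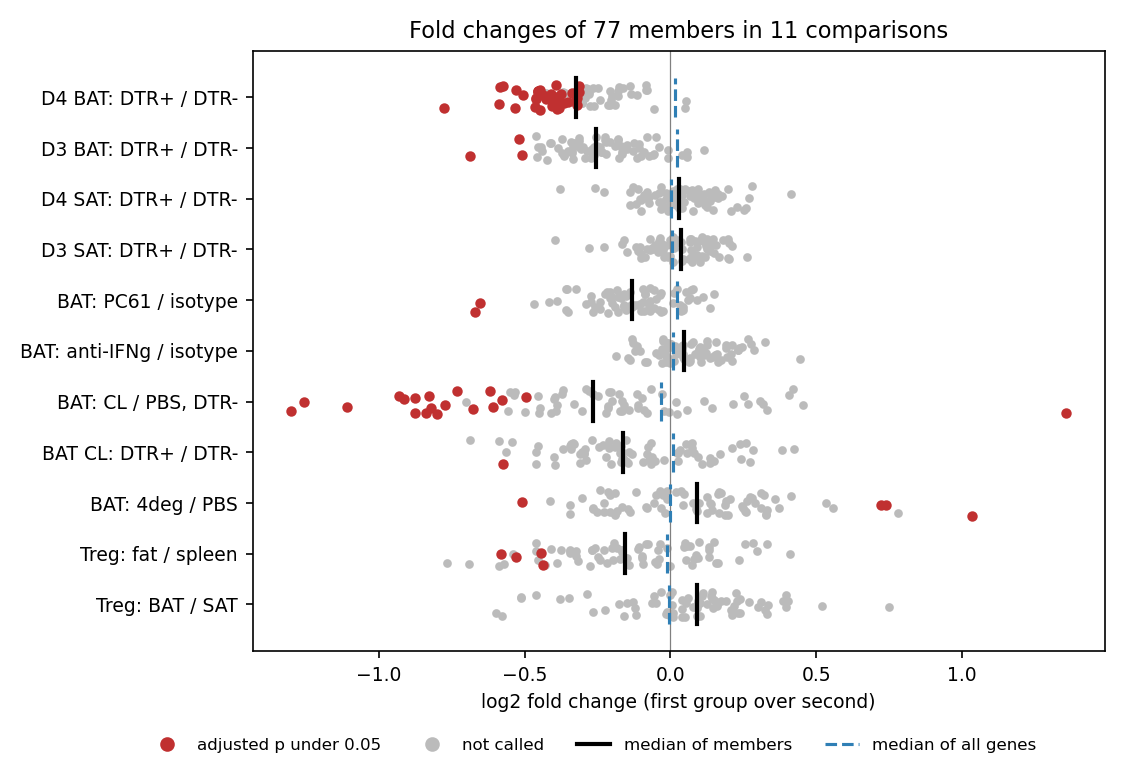
Log2 fold change (horizontal axis) of the 77 tested members (points) in 11 comparisons (vertical axis). Points are red where the adjusted p is under 0.05 and grey elsewhere. A black line marks the members' median and a blue dashed line marks the median of all tested genes. D4 BAT of DTR+ over DTR- stands at a median of -0.32, and both SAT comparisons of genotype stand near 0.

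In fat Tregs (BAT and SAT libraries weighted equally) against spleen Tregs, 4 of 77 members were lower (5.27% of 13847 tested genes) and none was higher (7.29%). The share of members called lower was close to that of all tested genes. The median was -0.16 against -0.01 over all tested genes, with 55 members negative. The summed level was 2955 and 3056 CPM in BAT Tregs and 3048, 2780 and 3021 CPM in SAT Tregs, against 3417, 3484 and 3542 CPM in spleen Tregs, so that no fat library reached a spleen library.

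Mrpl10, a protein at the base of the stalk that recruits translation factors, came first by p. It had 57.1 and 49.5 normalised CPM in BAT Tregs and 48.2, 37.98 and 50.4 in SAT Tregs, against 79.6, 70.3 and 71.3 in spleen Tregs (log2 fold change -0.58 ± 0.15, adjusted p = 0.025). Mrpl17 had 38.9 and 38.04 normalised CPM in BAT Tregs and 49.2, 42.8 and 46.7 in SAT Tregs, against 53.4, 56.7 and 72.6 in spleen Tregs (-0.53 ± 0.16, adjusted p = 0.049). Mrpl30 and Mrps17 fell by 0.44 each (adjusted p = 0.037 and 0.045). The fat and spleen libraries of all 4 genes did not overlap. This held for 8 members in all, each lower in fat Tregs (9.48% of tested genes), and for none higher (10.4%). The share of members with such lower ranges was again close to that of all tested genes. Leaving out any 1 of the 8 libraries left 0 to 2, and the block by library number left 1. Mrps2, which fell in D4 BAT of DTR+ mice, had 18.8 and 31.6 in BAT Tregs and 30.8, 23.8 and 24.2 in SAT Tregs, against 30.0, 40.3 and 45.7 normalised CPM in spleen Tregs, and was not called (-0.59 ± 0.23, adjusted p = 0.12).

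The cytosolic ribosomal proteins had 48 of 77 members lower in fat Tregs (median -0.32), among them Rps19 (-0.61) and Rpl8 (-0.47). No complex I subunit of 35 was called (median -0.08), and mt-Nd4 was the only mitochondrially encoded gene of 10 tested that was called (-0.41). The mitochondrial RNA polymerase Polrmt (-0.67) and Ssbp1 (-0.63) were lower and Polg2, an accessory subunit of the mitochondrial DNA polymerase, was higher (1.61). B cell markers ran from 761 to 1280 CPM over these libraries. Between BAT and SAT Tregs, with 2 and 3 libraries, 0 of 77 members was called (0% of 13847 tested genes in either direction), with 2 at an unadjusted p under 0.05 and 0 by DESeq2, and the median was 0.09. Mrpl4, the most abundant member there, had 108 and 123 normalised CPM in BAT Tregs, against 110, 116 and 107 in SAT Tregs (0.05 ± 0.15, adjusted p = 0.96). Mrps36 had 7.69 and 8.95 normalised CPM in BAT Tregs, against 7.28, 6.12 and 5.58 in SAT Tregs (0.40, adjusted p = 0.87).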

How the data were processed

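RNA was read as Smart-seq2 libraries primed by oligo(dT) and finished with Nextera XT, per the labels' protocols. The deposited values are raw counts per gene, made by the authors with STAR 2.7.3a and featureCounts on mm10, per the submitters' processing notes. The strand setting, the annotation release and the treatment of multiply matching reads were not given in the sources used here. Reads over exons that 2 genes share cannot be told apart here.

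Each comparison was filtered with edgeR's filterByExpr (minimum count 10), scaled by TMM and fitted in R 4.3.3 with edgeR 4.0.16 (robust quasi-likelihood F test, Benjamini-Hochberg adjustment over all tested genes, threshold 0.05). Treg groups were fitted in 1 model, as were the CL and PBS groups and the groups of each difference between depots. Standard errors were taken from the log2 fold change and the root of F. Normalised CPM is scaled by TMM within a comparison. Levels per kb use the merged exons of all annotated transcripts of a gene in GENCODE M21 (mm10).

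The members, and the lists of other mitochondrial and marker genes, were chosen with earlier results of these data known. Named in each comparison were up to 10 members higher and 10 lower by p, or else the 2 of highest level, with Mrps18a, Mrps18b, Mrps18c, Mrpl12, Mrpl45, Mrpl58 and Mrps36 always computed; for levels, the 5 highest and 5 lowest per kb; and up to 4 called genes of each list, of which the text gives a part. Members named beyond these were chosen after their values were seen.

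Alternatives were DESeq2 1.42.0, RLE factors, library totals, no filter, a block by library number, a fit over all whole-fat libraries and leaving out each library. In no pair of groups was every correlation of same-numbered deviations over 0.1, so the main fits did not pair samples by number. This cutoff cannot exclude pairing. Between BAT and SAT of D3 DTR+ mice the correlations were 0.05 to 0.14, and 3 of 3 numbers matched best with themselves. In D3 DTR- mice they were -0.13 to -0.02, and 0 of 3 did. The procedure was tested on simulated counts in which randomly drawn genes were changed by more than most members changed within a tissue. Small changes shared by a whole class of genes were not simulated. Replicates differed beyond counting noise in all 67 pairs (chi-square per degree of freedom 7.02 to 37.6).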

Additional observations from a re-analysis of the deposited data

Results flagged for a closer look

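In 2 groups of 4 libraries a single library stood apart from the other 3 by more than Dixon's critical share of the range, of 79 groups examined; chance alone gives about 1 in 20. In D4 BAT of DTR- mice Mrps18b was at 56.07 normalised CPM in library 4 and at 53.49, 53.5 and 53.52 in the others, so the gap is 0.988 of a narrow range. In the same group Mrps35 was at 232.0 normalised CPM in library 3 and at 277.9, 278.5 and 279 in the others (0.977 of the range, scaled as in the BAT and SAT comparison).

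For 10 members the log2 fold change of DTR+ over DTR- in D4 differed between BAT and SAT by edgeR's interaction test. BAT minus SAT was -0.751 for Mrpl34, -0.615 for Mrpl30, -0.722 for Mrpl3, -0.761 for Mrps15, -0.516 for Mrps7, -0.636 for Mrps2, -0.519 for Mrps24, -0.886 for Mrpl50, -0.603 for Mrps21 and -0.671 for Mrpl44, with adjusted p from 0.016 to 0.046. Without BAT DTR- library 2 the only one of these to pass was Mrpl34.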

How the results depend on the processing

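No called log2 fold change of a named member changed direction under the alternatives run. Some medians near 0 did change sign: -0.01 without DTR- library 1 and -0.02 without DTR+ library 3 in D4 SAT (0.03 with all), -0.04 without DTR- library 1 in D3 SAT (0.04 with all), and -0.003 with library totals for anti-IFNy (0.05). The following counts of members called moved by more than 1.5 times. For fat against spleen Tregs the count was 4, and it was 1 without the low-count filter. For D4 BAT it was 36, and 2 with library totals. For the D4 difference between depots it was 10, and 16 with DESeq2, 0 with library totals, 5 without the filter and 5 without the SAT pair numbered 3. For D3 BAT it was 3, and 1 in the fit over all whole-fat libraries, 0 with library totals and 5 without the filter. For the D3 difference it was 0, and 1 with DESeq2 and 1 without the filter. For CL against PBS it was 19, and 41 in the fit over all whole-fat libraries. For DTR+ with CL it was 1, and 3 with DESeq2, 12 over all whole-fat libraries and 0 with library totals. For PC61 it was 2, and 1 over all whole-fat libraries and 0 with library totals. For 4 degrees it was 4, and 16 with D3 controls, 31 with D4 controls and 9 over all whole-fat libraries. The cause of these changes was not tested.

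Leaving out each library in turn gave 0 to 2 for fat against spleen Tregs, 24 to 42 for D4 BAT, 1 to 10 for the D4 difference, 0 to 3 for D3 BAT, 74 to 76 and 71 to 74 for BAT against SAT in D4 and D3, 8 to 22 for CL, 0 to 3 for DTR+ with CL, 0 to 1 for PC61 and 1 to 6 for 4 degrees, and 0 for BAT against SAT Tregs, both SAT comparisons of genotype, the D3 difference and anti-IFNy.

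The block by library number is not known to be a pairing of animals. With it the count was 1 for fat against spleen Tregs, 1 for D3 BAT and 0 for DTR+ with CL. The count was 1 for PC61 and 2 for 4 degrees. It was 39 for D4 BAT, 9 for the D4 difference, 17 for CL, and 75 and 72 for BAT against SAT in D4 and D3. No paired analysis was possible for anti-IFNy because its groups share only 1 number. A fit of the compared tissues alone was not run for fat against spleen Tregs.

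With 2 to 4 libraries a group, small changes of single members cannot be resolved. Members with few counts, such as Mrpl23 and Mrpl53, are limited by depth.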
